A study of Homo sapiens with 12 samples.

Results

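The expression profile of ARP1, 1 of 3 human multiple myeloma cell lines in the series, was compared with that of the other lines. All 4 ARP1 arrays were set against the 4 arrays labelled JJN3 and the 4 labelled RPMI-8226, so the comparison took in 12 of the 12 arrays. The arrays were Affymetrix hybridisations of total RNA, and each line was represented once under each of 4 treatments: untreated control, the BET bromodomain inhibitor CPI203 at 0.01 µM, lenalidomide at 5 µM with dexamethasone at 0.05 µM (LenDex), and all 3 drugs at these doses (Combo), with 6 h given as the treatment time. Each ARP1 array was matched with the other lines' arrays of the same treatment, so that the differences described are between lines and not between drugs. The values are log2 levels of probe sets, and 1 probe set stood for each gene. Of 18239 genes, tests were run on 15173, those that reached a level of 5 on 3 or more of the arrays.

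Multiple myeloma is a tumour of plasma cells, the antibody-secreting end stage of the B lineage. On the way from B cell to plasma cell, PRDM1 (Blimp-1) and XBP1 come on, the surface programme of the B cell (MS4A1, CD22, MHC class II, the antigen receptor) is switched off, and the secretory pathway expands. Myeloma lines are further sorted by the oncogene that a translocation brings under an immunoglobulin enhancer, such as MAF. Both JJN3 and RPMI-8226 are known from the literature as MAF-rearranged plasma cell lines.

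The ARP1 arrays matched their label on the 5 genes used as markers, and the other 8 arrays did not. SDC1 (syndecan-1, CD138, the defining surface protein of plasma cells) read 12.23, 12.26, 11.86 and 11.78 on the ARP1 control, CPI203, LenDex and Combo arrays. It read 5.79, 5.23, 5.15 and 5.36 on the arrays labelled JJN3 and 5.38, 4.96, 5.23 and 5.18 on those labelled RPMI-8226. All 8 non-ARP1 readings lay in the range where probe sets of silent genes lie, since the median of every array was between 5.304 and 5.375. PRDM1 and MAF followed the same division, while MS4A1 (CD20) and CD22, surface proteins of mature B cells, were high on the 8 arrays and low in ARP1. The arrays labelled JJN3 and RPMI-8226 therefore went against their labels as plasma cell lines, and the names JJN3 and RPMI-8226 are used here for arrays so labelled. Which of the 3 lines' names belongs to which cells was not tested.

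The JJN3 and RPMI-8226 arrays were also much closer to each other than either was to ARP1. A gene was called where limma's adjusted p was under 0.05 and the difference was at least 1 on the log2 scale, that is 2-fold. By this rule 1251 genes were higher in ARP1 than in the mean of the other lines (8.24% of those tested) and 1285 were lower (8.47%). Against JJN3 alone the counts were 1263 higher (8.32%) and 1378 lower (9.08%), and against RPMI-8226 alone 1317 higher (8.68%) and 1298 lower (8.55%). Between JJN3 and RPMI-8226, 224 genes were higher in JJN3 (1.48%) and 117 lower (0.771%). The comparisons with each line share the ARP1 arrays, so they are given side by side and not as independent evidence. Of the genes called against the mean of the lines, 1060 of 1251 were also called higher against each line singly, and 1038 of 1285 called lower, while 10 genes tested had opposite calls against the lines.

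The differences were large and kept their sign across treatments for most called genes. By adjusted p alone, 7511 genes (49.5%) passed. At a difference of 2 or more, 482 genes were higher and 472 lower, and at 4 or more these numbers were 101 and 131. The 4 ARP1 values lay wholly outside the range of the other 8 for 1183 of the 1251 higher genes and 1184 of the 1285 lower ones. Over all genes tested, 15.7% had every ARP1 array above the other 8 and 15.2% had every one below. The sign was the same within each of the 4 treatments for 1249 higher and 1282 lower genes, and the median difference over all genes was -0.02. The call rule was applied to these same arrays and favours a constant sign, so these counts are not separate evidence. Because ARP1 is 1 line and its arrays may be cultures of the same stock, these p-values measure the spread between arrays and not between myeloma lines. Since bulk RNA was hybridised, fewer cells with a transcript and less of it per cell cannot be told apart.

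**Figure D1:**
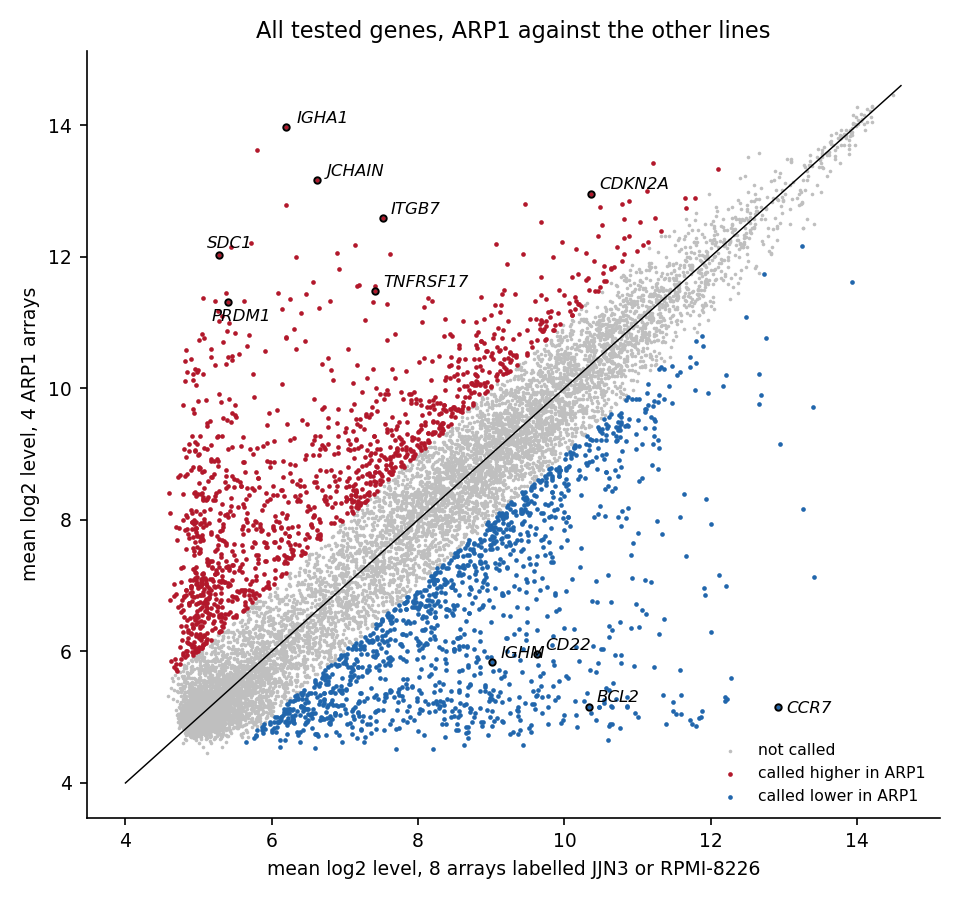
Each point is a tested gene, with the mean log2 level on the 8 arrays labelled JJN3 or RPMI-8226 on the x axis and the mean on the 4 ARP1 arrays on the y axis. The line marks equal levels. Of the 15173 genes tested, those of the Y chromosome, XIST and TSIX are not drawn. Genes without a RefSeq entry or with a symbol that starts with LOC are also left out. The genes called higher and those called lower form broad fans, and columns of points near 5 on either axis are genes near background on one side.

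Plasma cell genes were higher in ARP1 as a group. Of 23 measured members of a plasma cell list, 17 were called higher and 1 lower, against 8.24% and 8.47% of all genes tested, and the median difference was 2.11. SDC1 was 6.74 higher (SE 0.11), with an adjusted p of 3.31e-11. Levels near 5 are close to background, where RMA values change little, so a difference measured against such a level may understate the true one, and no fold is given for it. PRDM1, the repressor that ends the B-cell programme, read 11.55, 11.45, 11.28 and 10.96 on the ARP1 control, CPI203, LenDex and Combo arrays. Its other 8 values ran from 4.84 to 5.97 with a median of 5.43, a difference of 5.90 (SE 0.14, adjusted p = 3e-10). The groups did not overlap for either gene, and the gap between the lowest ARP1 array and the highest other array was 5.99 for SDC1 and 4.99 for PRDM1.

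Surface proteins of the plasma cell list differed by unequal amounts. GPRC5D, an orphan receptor of plasma cells, lay between 10.77 and 11.35 in ARP1 and between 5.15 and 5.59 on the other arrays, a difference of 5.78 (SE 0.10). TNFRSF17 (BCMA, the receptor that sustains long-lived plasma cells) read 11.62, 11.41, 11.54 and 11.35 on the ARP1 control, CPI203, LenDex and Combo arrays. On the same treatments it read 6.98, 5.52, 8.74 and 6.81 in JJN3 and 8.84, 5.55, 9.83 and 7.03 in RPMI-8226, so it ran from 5.52 to 9.83 among those arrays. It was lowest with CPI203 and highest with LenDex in both, and the ARP1 difference of 4.07 (SE 0.47, adjusted p = 3.59e-05) ranged from 2.26 within LenDex to 5.87 within CPI203. CD38, an ectoenzyme of plasma cells, was higher by 3.24. SLAMF7 (CS1), the target of an antibody used in myeloma, was called higher by 1.1 (SE 0.23), but its groups overlapped. It read 9.57, 9.39, 9.06 and 8.43 in ARP1, 9.99, 9.34, 7.80 and 7.17 in JJN3 and 8.41, 7.51, 7.03 and 6.83 in RPMI-8226, and against JJN3 alone its difference of 0.54 was not called. FCRL5, a receptor of the Fc-receptor-like family, was the member called lower, at -1.63, on a probe set that read 4.80 in ARP1 and 6.72 and 6.13 in the other lines; none of the 7 further probe sets of FCRL5 tested was called.

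Other factors and secretory genes of the plasma cell list had differences of mixed size. XBP1, the transcription factor of the secretory programme, averaged 12.75 in ARP1 and 10.51 and 10.47 in the others. MZB1, FKBP11 and DERL3, which serve antibody folding and disposal in the endoplasmic reticulum, differed by 1.54, 3.25 and 3.22. The 5 members not called included IRF4, a factor that myeloma cells depend on, at 12.05 in ARP1 against 12.71 and 12.95, and POU2AF1, an octamer co-activator, with a difference of 0.57. IRF4 was thus abundant on all 12 arrays.

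**Figure D2:**
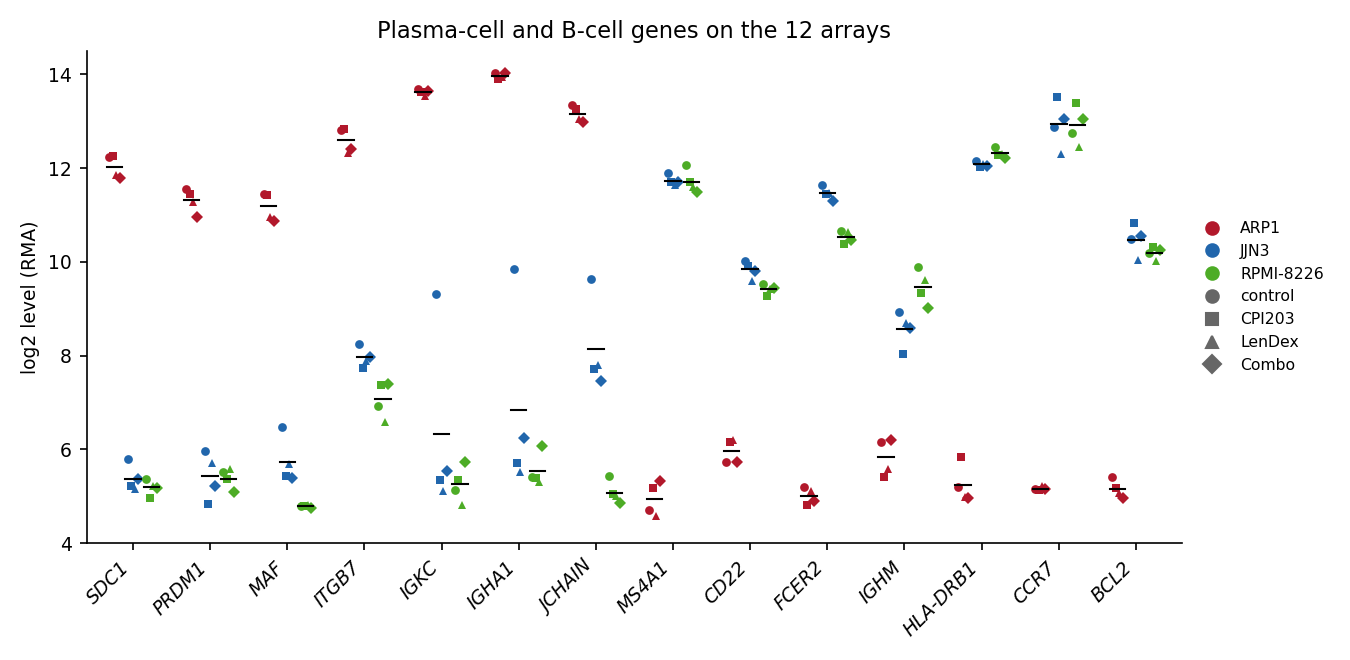
Log2 levels of 14 genes on the 12 arrays, coloured by line and shaped by treatment, with short bars at each line's mean of 4 arrays. SDC1, PRDM1, MAF, ITGB7, IGKC, IGHA1 and JCHAIN are high in ARP1, the remaining 7 genes are high on the arrays labelled JJN3 and RPMI-8226, and the JJN3 control array alone carries IGKC, IGHA1 and JCHAIN above 9.

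Among the immunoglobulin genes measured, the kappa and alpha chain genes were higher in ARP1 and the mu chain gene was lower. Gamma, delta, epsilon and lambda constant genes of the list had no probe set with 1 gene symbol and were not measured. IGKC, the kappa light chain constant gene, read 13.68, 13.62, 13.54 and 13.65 on the ARP1 control, CPI203, LenDex and Combo arrays, and IGHA1, the alpha heavy chain gene, read between 13.89 and 14.02. On the other 8 arrays IGKC ran from 4.82 to 9.32 with a median of 5.35, and IGHA1 from 5.3 to 9.84 with a median of 5.62. The differences were 7.82 (SE 0.57, adjusted p = 1.1e-06) and 7.78 (SE 0.57, adjusted p = 1.26e-06). IGHM, the mu heavy chain gene of B cells that have not switched class, went the other way. It read 6.15, 5.42, 5.58 and 6.21 in ARP1, from 8.04 up to 8.93 under the JJN3 label and from 9.02 up to 9.90 under that of RPMI-8226, a difference of -3.18 (SE 0.16, adjusted p = 5.76e-08). Of 6 measured immunoglobulin genes 3 were called higher (IGKC, IGHA1, IGLL5) and 1 lower, against 8.24% and 8.47% of all genes tested. Immunoglobulin probe sets can cross-hybridise with related chains, and none of the 3 further tested probe sets of IGKC was called.

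One JJN3 array carried part of this signal. IGKC was 9.32 on the JJN3 control array and 5.11 to 5.55 on the other JJN3 arrays, and IGHA1 was 9.84 against 5.52 to 6.24. JCHAIN, which joins IgA and IgM into polymers, read 9.63 there and 7.46 to 7.80 on the other JJN3 arrays, while it lay between 4.85 and 5.43 in RPMI-8226 and between 12.98 and 13.34 in ARP1. Without the JJN3 control array the ARP1 differences were 8.33 for IGKC, 8.29 for IGHA1 and 6.74 for JCHAIN, in place of 7.82, 7.78 and 6.54. Over the 1251 genes higher in ARP1, the JJN3 control array exceeded the mean of the other JJN3 arrays by a median of 0.015, against -0.016 over all genes tested. An excess on that array was more frequent among the genes furthest apart. For all of the 10 largest positive differences the JJN3 control array was the highest of the 4 JJN3 arrays, as it was for 32 of the 45 genes on in ARP1 (71.1%; under 6 on each of the other 8 arrays and 9 or more on each ARP1 array), against 26.9% of all genes tested. The RPMI-8226 control array was the highest of its line for 8 of the same 45 genes (17.8%), against 26.7% of all. CTSB, a lysosomal protease with a difference of 6.59, read 8.17 on the JJN3 control array against 6.43 to 6.99 on the other JJN3 arrays, and SDC1 read 5.79 against 5.15 to 5.36. Without the JJN3 control array 1243 genes were called higher in ARP1 and 1318 lower. The part of that array in other results was not tested, except where a value without it is given.

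MAF, a transcription factor and myeloma oncogene, was high on the ARP1 arrays alone. It read 11.45, 11.43, 10.95 and 10.87 on the ARP1 control, CPI203, LenDex and Combo arrays, 6.47, 5.43, 5.68 and 5.39 in JJN3, and 4.76 to 4.82 in RPMI-8226. The difference was 5.91 (SE 0.15, adjusted p = 5.02e-10) with no overlap. Of 11 measured genes in a list of MAF and its reported targets, 5 were called higher and 0 lower. The shares of all genes tested were 8.24% and 8.47%, and the median difference of the list was 0.81. ITGB7, the integrin beta 7 chain through which MAF-expressing myeloma cells bind stroma, averaged 12.59 in ARP1 against 7.96 for JJN3 and 7.07 for RPMI-8226, a difference of 5.07. DEPTOR, an inhibitor of mTOR, differed by 4.98 and NUAK1, an AMPK-related kinase, by 3.73. CCR1, a chemokine receptor, differed by 2.59 (3.55 in control, 1.43 in Combo). CCND2, the cyclin D2 gene that MAF also activates, did not follow them, with 12.24 in ARP1 against 12.68 and 12.71.

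The other genes that myeloma translocations activate gave no such separation. Of 10 measured members of a translocation and cyclin list, MAF was the only one called. Among all genes tested, 16.7% were called in either direction. CCND1 averaged 4.82 in ARP1 against 5.41 and 4.96, FGFR3 5.24, 6.12 and 5.25, and MAFA 4.95, 5.02 and 5.03, all near the array median. MYC was high in all lines, with means of 11.63 for JJN3 and 11.15 for RPMI-8226 and an ARP1 difference of 0.61 that fell short of the minimum size.

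The secretory pathway differed by small amounts that pointed mostly one way. Of 33 measured members of a secretory and unfolded protein response list, 25 had a higher mean in ARP1 and the median difference was 0.42. By the size rule 7 were called higher and 1 lower, against 8.24% and 8.47% of all genes tested. PDIA6, a protein disulfide isomerase, differed by 1.97, KDELR3, a receptor that returns chaperones to the endoplasmic reticulum, by 1.83, CRELD2 by 1.82 and DNAJB9 (ERdj4, a co-chaperone) by 1.79. DNAJB9 read 10.16, 10.18, 9.97 and 10.35 in ARP1, 8.34, 8.97, 8.82 and 9.08 in JJN3 and 7.90, 7.95, 8.09 and 7.88 in RPMI-8226, in the order control, CPI203, LenDex and Combo, with no overlap. The chaperone HSPA5 (BiP) was alike in the lines, at 12.58, 12.71 and 12.48. ERO1B, an oxidase of the same compartment, was called lower at -1.33, against RPMI-8226 by 2.01 and against JJN3 by 0.65, which was not called. Its difference was -0.3 in control, -0.83 in CPI203, -2.4 in LenDex and -1.78 in Combo. None of its 3 other tested probe sets was called.

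DNAJB9 and KDELR3 are shown with their promoter windows because both were called higher and both windows hold CCACGT, the core of the sites that XBP1 binds. The windows run from 250 bases before to 50 after the RefSeq transcription start, 300 bases in build GRCh38.p14, and lie at chr7:108569624-108569923 and chr22:38467846-38468145, both on the plus strand. They are printed 5′ to 3′ in the gene's direction with each match, on either strand, in capitals (ACGTGG is the reverse complement of CCACGT, and matches on the 2 strands can overlap).
DNAJB9: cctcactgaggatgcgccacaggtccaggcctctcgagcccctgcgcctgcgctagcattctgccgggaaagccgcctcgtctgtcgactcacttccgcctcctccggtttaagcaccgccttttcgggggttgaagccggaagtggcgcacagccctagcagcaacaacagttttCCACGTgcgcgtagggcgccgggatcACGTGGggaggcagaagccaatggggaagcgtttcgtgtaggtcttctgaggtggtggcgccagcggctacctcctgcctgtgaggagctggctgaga
KDELR3: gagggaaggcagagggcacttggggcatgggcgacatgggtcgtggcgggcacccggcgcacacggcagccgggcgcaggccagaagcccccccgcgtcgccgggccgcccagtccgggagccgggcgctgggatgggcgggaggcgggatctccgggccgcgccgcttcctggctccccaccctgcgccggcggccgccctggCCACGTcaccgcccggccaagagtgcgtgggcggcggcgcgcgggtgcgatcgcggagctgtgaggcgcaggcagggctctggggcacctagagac
In the secretory list 9 of 31 promoters held the core (29.0%), against 1456 of all 12190 tested genes with a promoter in the table (11.9%). It was found in 154 of 1030 genes called higher and in 114 of 1035 called lower. For the half-site of MAF, TGCTGA, the counts were 144 of 1030 higher and 126 of 1035 lower genes (12.2%), against 14.1% of all, and for GAAAGTG, the core bound by PRDM1, the shares of higher, lower and all genes were 4.37%, 4.73% and 4.21%. These shares describe letters in a window and say nothing of binding.

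**Figure D3:**
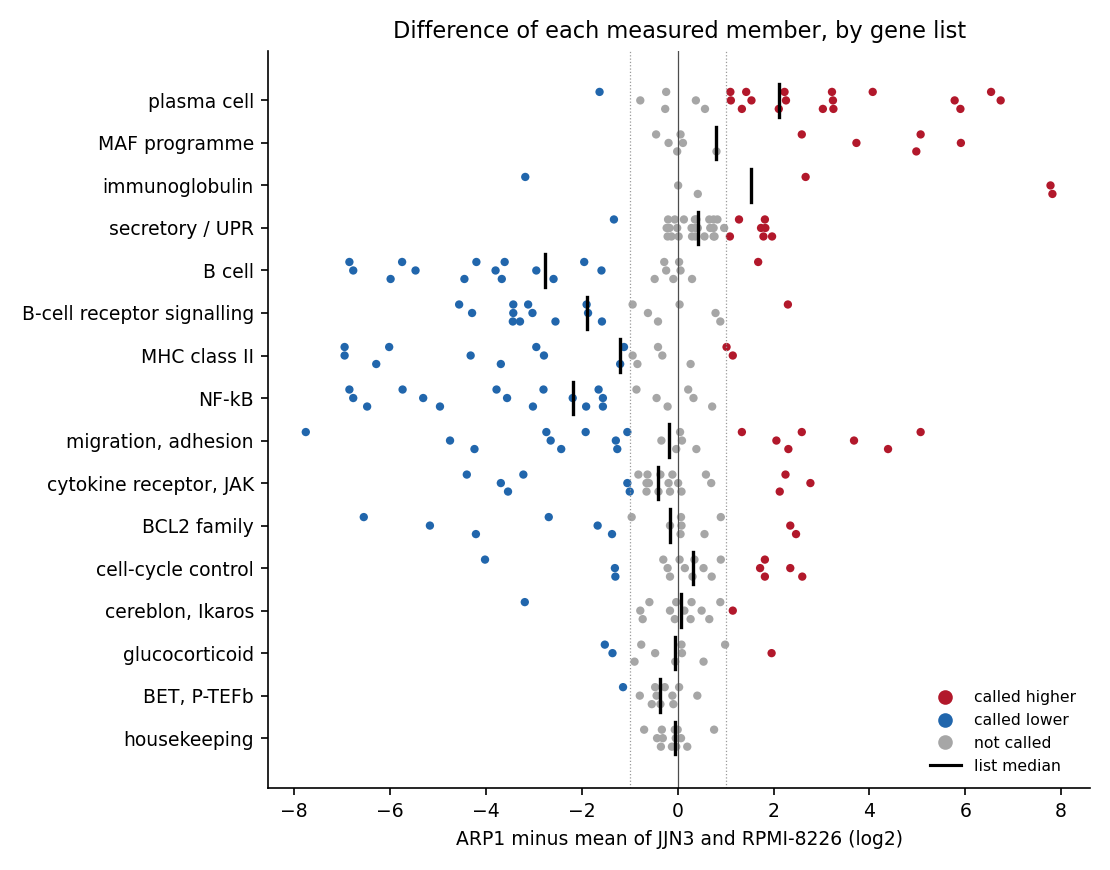
Each point is a measured gene, placed by its difference on the log2 scale between ARP1 and the mean of JJN3 and RPMI-8226, in 16 of the gene lists; black bars are list medians and dotted lines mark a difference of 1 either way. The plasma cell list has its median at 2.11, the B-cell list at -2.77 and the NF-kB list at -2.19, while housekeeping genes stay within 1 of 0.

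B-cell genes were the mirror image of the plasma cell genes. Of 22 measured members of a B-cell list, 14 were called lower and 1 higher, against 8.47% and 8.24% of all genes tested. The median difference was -2.77. MS4A1 read 4.70, 5.18, 4.59 and 5.33 on the ARP1 control, CPI203, LenDex and Combo arrays, and the other 8 values ran from 11.48 to 12.06 with a median of 11.70. The difference was -6.77 (SE 0.15, adjusted p = 1.45e-10), with the ARP1 arrays near background. CD22, an inhibitory co-receptor, read 5.74, 6.16, 6.21 and 5.73 in ARP1, 9.60 to 10.02 under the JJN3 label and 9.28 to 9.53 under that of RPMI-8226, a difference of -3.67 (SE 0.12, adjusted p = 3.45e-09). Neither gene overlapped between the groups. CD40, the receptor for T-cell help, was lower by -6.85, FCER2 (CD23) by -5.99, CD83 by -5.75 and CD79A, a signalling chain of the antigen receptor, by -5.47.

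Not all of the B-cell regulators moved. EBF1, a factor that sets B-lineage identity, averaged 5.16 in ARP1 and 9.43 and 9.29 in the others, but PAX5 was at 7.13, 7.01 and 7.14 in the 3 lines, with a difference of 0.06. BACH2, a repressor that holds B cells back from plasma cell fate, was the member called higher, by 1.68 (SE 0.27). Its ARP1 values were 6.46, 6.38, 8.01 and 6.24, with the LenDex array apart, against 4.88 to 5.40 on the other 8 arrays. Its other tested probe set was not called. Of 7 measured germinal centre genes 1 was called higher and 1 lower, against 8.24% and 8.47% of all genes tested. MYBL1 (a MYB-family factor) was higher by 2.37 and GCSAM (a motility regulator of germinal centre B cells) lower by -4.88. BCL6, the master repressor of that stage, was near 5 in all lines, at 4.94, 5.12 and 4.95.

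The signalling chain below the antigen receptor was lower with it. Of 19 measured members 12 were called lower and 1 higher, against 8.47% and 8.24% of all genes tested, with a median of -1.90. PIK3CD, the leukocyte PI3-kinase catalytic subunit, averaged 6.35 in ARP1 and 11.13 and 10.69 in JJN3 and RPMI-8226, a difference of -4.56. The adaptor BLNK differed by -4.29, PRKCB by -3.44, BTK by -3.43 and SYK by -1.90. VAV1, an exchange factor, was the 1 member called higher, by 2.30, and read 9.47 to 9.74 in ARP1 against 6.85 to 7.49, while its relative VAV2 was lower by -2.55.

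MHC class II genes were among the largest differences. Of 17 measured members 10 were called lower and 2 higher, against 8.47% and 8.24% of all genes tested, with a median of -1.20. HLA-DRB1 read 5.19, 5.84, 4.98 and 4.97 on the ARP1 control, CPI203, LenDex and Combo arrays, and the other 8 arrays lay between 12.03 and 12.44. That is a difference of -6.95 (SE 0.13, adjusted p = 7.14e-11). HLA-DQA1 was lower by the same -6.95, HLA-DPA1 by -6.29 and HLA-DQB1 by -6.02. Of the 7 other tested probe sets of HLA-DQB1, 2 were called lower and 0 higher. HLA-DRA and CD74 (the invariant chain) were lower by -3.69 and -2.79 but stayed well above background in ARP1, at 9.71 and 9.89. At the level of silent genes in ARP1 were the beta chains HLA-DRB1, HLA-DRB5 and HLA-DQB1 (5.25, 5.31 and 5.33) and the alpha chain HLA-DQA1 (5.27). HLA-DPA1 lay between, at 7.13. CIITA, the master activator of the class II genes, averaged 4.97 in ARP1 against 5.39 and 6.23 and was not called (-0.84). Its JJN3 mean was itself near background, though HLA-DRB1 read 12.03 to 12.16 there, so this probe set could miss a difference. RFXANK, a subunit of the factor on class II promoters, and IFI30, a thiol reductase of antigen processing, were higher by 1.02 and 1.15. Class II genes are polymorphic and close in sequence, so a probe set can fit one allele or paralog better than another, and the levels of HLA-DRB1 and HLA-DRB5 in particular may share signal.

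HLA-DRB1 and HLA-DQB1 are shown with their promoter windows because their beta chains were the class II genes at background in ARP1 for which the window holds a Y box, CTGATTGG, one of the elements that the class II activator complex uses. The windows lie at chr6:32589799-32590098 and chr6:32666608-32666907 in GRCh38.p14, both on the minus strand, and are printed 5′ to 3′ in the gene's direction with the Y box in capitals.
HLA-DRB1: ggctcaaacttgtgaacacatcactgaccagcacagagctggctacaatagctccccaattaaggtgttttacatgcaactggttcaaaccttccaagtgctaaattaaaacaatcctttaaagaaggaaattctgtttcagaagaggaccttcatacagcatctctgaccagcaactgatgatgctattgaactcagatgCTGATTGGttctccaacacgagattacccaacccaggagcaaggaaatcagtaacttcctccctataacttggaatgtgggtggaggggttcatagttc
HLA-DQB1: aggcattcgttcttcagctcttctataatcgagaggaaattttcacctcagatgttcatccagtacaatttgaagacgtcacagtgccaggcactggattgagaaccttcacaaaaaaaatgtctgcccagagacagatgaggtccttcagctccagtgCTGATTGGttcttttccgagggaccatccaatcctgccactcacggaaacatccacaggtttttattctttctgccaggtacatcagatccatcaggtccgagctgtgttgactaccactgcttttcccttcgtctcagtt
The Y box, searched on both strands, was present in 4 of 14 class II list promoters (28.6%; HLA-DRB1, HLA-DQB1, HLA-DMA and RFX5), in 6.18% of genes called lower, 6.41% of genes called higher and 5.39% of all. This motif was chosen after the levels had been seen. In both printed windows a MAF half-site, TGCTGA, starts 2 bases before the Y box and overlaps it.

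Subunits, regulators and targets of NF-kB, a transcription factor of B-cell activation, were lower in ARP1 or not called. Of 21 measured members 15 were called lower and 0 higher, against 8.47% and 8.24% of all genes tested. The median was -2.19, and 3 members had a higher mean in ARP1. EBI3, a cytokine subunit, read 5.04, 4.84, 5.18 and 4.99 in ARP1 and 11.70 to 12.03 on the other 8 arrays, a difference of -6.85 (SE 0.07, adjusted p = 5.4e-12). CD70, the ligand of CD27, was lower by -6.77, the chemokine CCL22 by -6.48 and the adaptor TRAF1 by -5.74. The feedback inhibitors TNFAIP3 (A20) and NFKBIA were lower by -4.96 and -3.78, though NFKBIA still averaged 9.16 in ARP1. Among the NF-kB subunits NFKB2 was lower by -3.56, REL by -2.19, NFKB1 by -1.91 and RELB by -1.56, and RELA differed by 0.22, which was not called.

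The BCL2 family was divided between members that were lower and members that were higher. Of 15 measured genes 6 were called lower and 2 higher, against 8.47% and 8.24% of all genes tested. BCL2, the survival protein, read 5.42, 5.17, 5.07 and 4.97 on the ARP1 control, CPI203, LenDex and Combo arrays and 10.02 to 10.82 on the other 8, a difference of -5.17 (SE 0.11, adjusted p = 1.42e-10). BCL2A1, an NF-kB-driven survival gene, was lower by -6.55, and BCL2L1 (BCL-XL) by -1.67. The other tested probe set of BCL2A1 was not called. The pro-death members PMAIP1 (NOXA) and BBC3 (PUMA) were lower too, by -4.21 and -2.69. MCL1, the survival protein on which plasma cells rely, had its highest levels in ARP1, at 12.39 against 11.53 and 11.46, but its difference of 0.90 fell short of the minimum size. Another pro-death member, BCL2L11 (BIM), was higher by 2.35. The death effectors BAK1 and BAX went opposite ways, BAK1 higher by 2.47 and BAX lower by -1.37. BCL2L11 read 7.41, 8.09, 8.64 and 8.97 in ARP1 in the order control, CPI203, LenDex and Combo, so its difference was 1.49 in control and 2.89 in Combo.

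Receptors for migration and adhesion showed an exchange of members rather than a shift. Of 22 measured genes 7 were called higher and 10 lower, against 8.24% and 8.47% of all genes tested, with a median of -0.19. CCR7, which guides lymphocytes to lymph nodes, had the largest measured negative difference of all genes tested. It read 5.15, 5.14, 5.22 and 5.15 on the ARP1 control, CPI203, LenDex and Combo arrays and 12.30 to 13.51 on the other 8, a difference of -7.76 (SE 0.15, adjusted p = 7.79e-11), with the ARP1 arrays near background. ICAM1 was lower by -4.75, ITGB2 (the beta 2 integrin) by -4.24 and GPR183 (the oxysterol receptor EBI2) by -2.74. The GPR183 difference ran from -4.06 in control to -1.26 in Combo. ITGB7 and ITGB1, 2 integrin beta chains, were higher by 5.07 and 4.39, and ITGA4, the alpha chain that pairs with both, by 1.34. For ITGA4 the groups overlapped, with a lowest ARP1 value of 8.98 and a highest value of 9.46 on the other arrays. ICAM3 was higher by 3.68 and CCR10, a receptor known from IgA plasma cells, by 2.06. Neither other tested probe set of ICAM3 was called. ITGB1 separated all 3 lines, with means of 11.56 for ARP1, 9.04 for JJN3 and 5.3 for RPMI-8226.

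The BAFF and APRIL axis had its receptors exchanged. TNFRSF17 and SDC1 were higher as above, TNFRSF13B (TACI) was lower by -1.99, and the BAFF gene TNFSF13B was lower by -4.05, with ARP1 values of 4.46 to 4.82 against 8.10 to 9.39. TNFRSF13C (BAFF receptor) was near background in every line and not called.

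In the cytokine receptor and JAK list 3 of 23 members were called higher and 6 lower, against 8.24% and 8.47% of all genes tested. PTPRC (CD45), the leukocyte phosphatase that many myeloma cells lose, read 5.65, 5.22, 6.43 and 5.17 in ARP1 and 9.39 to 10.53 on the other 8 arrays, a difference of -4.40 (SE 0.19, adjusted p = 2.27e-08). The feedback inhibitor SOCS1 was lower by -3.69, IL4R by -3.54 and IL21R by -3.22. JAK1 was higher by 2.77 and IL6R, which binds the main growth factor of myeloma, by 2.25. IL6ST, the shared chain of that receptor, was alike at 10.79, 10.86 and 10.72, and IL6 itself was near background. INSR was called higher by 2.13, but it was 3.48 above JJN3 and 0.78 above RPMI-8226, and the latter was not called.

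Cell-cycle inhibitors went both ways, also among the CDKN1 genes. Of 18 measured members of a cell-cycle control list, 5 were called higher and 3 lower, against 8.24% and 8.47% of all genes tested. CDKN2A (the p16 gene) read 13.08, 13.06, 12.91 and 12.79 in ARP1, from 9.94 up to 10.07 on the JJN3 arrays and from 10.61 up to 10.91 on those of RPMI-8226, a difference of 2.60 (SE 0.09, adjusted p = 4.24e-09). CDKN1C was higher by 2.35, CDKN1B (p27) by 1.82, CDKN2B by 1.72 and the DNA damage kinase ATM by 1.82. None of the 3 other tested probe sets of ATM was called. CDKN1A (p21), a p53 target, went the other way. It read 7.18, 5.37, 8.09 and 7.69 in ARP1 and 10.22 to 11.69 on the other arrays, a difference of -4.02 (SE 0.40, adjusted p = 1.37e-05). MDM2, another p53 target, was lower by -1.31 and CCNE2 (cyclin E2) by -1.30.

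Among genes of the pathways that the drugs act on, CRBN and NR3C1 were not called and BRD3 was called lower. In a cereblon and Ikaros list, 1 of 14 members was called higher and 1 lower, with a median of 0.06, where 16.7% of all genes tested were called in either direction. CRBN, the ubiquitin ligase subunit that lenalidomide binds, averaged 6.84 in ARP1 against 7.57 and 7.67, and IKZF1 and IKZF3, the transcription factors degraded through it, differed by 0.66 and 0.89; none of the 3 was called. IKZF2 (Helios) was lower by -3.19, at 5.26 against 8.07 and 8.82, and IKZF5 was higher by 1.15. For each of these genes the other tested probe set was not called. In a BET and P-TEFb list of 11 tested members the 1 call was BRD3, one of the bromodomain proteins that CPI203 binds, lower by -1.14, and BRD2 differed by -0.47. In a glucocorticoid list of 11 tested members 1 was called higher and 2 lower, with a median of -0.05. NR3C1, the glucocorticoid receptor, differed by -0.90 and was not called, and its co-activator NCOA1 was higher by 1.96. TSC22D3 (GILZ), a direct glucocorticoid target, was lower by -1.52. PER1, another target, was called lower by -1.36, but on the control arrays it was 0.14 higher in ARP1, with all values between 5.44 and 5.64.

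Markers of other cell types were mostly near background in all 3 lines. For comparison, 8.24% of all genes tested were called higher and 8.47% lower. In a T and NK cell list 0 of 11 members were called higher and 1 lower, CD3D by -1.24, which was at 7.33 to 7.68 in JJN3 and 4.89 to 5.39 elsewhere. CD3E and CD3G were near 5 on all arrays. The monocyte list had 1 call in 8, MNDA lower by -2.18 (5.28 against 7.47 and 7.44), with LYZ and S100A8 near 5 in all lines. An epithelial and fibroblast list had no call in 11, though KRT18 averaged 6.76 in ARP1 against 9.20 for JJN3 and 5.57 for RPMI-8226. Fetal and embryonic globin genes were high in ARP1 and JJN3. HBG1 averaged 12.31 in ARP1 against 13.27 for JJN3 and 7.66 for RPMI-8226, and HBZ 9.72, 9.76 and 4.97. Their calls of 1.84 and 2.35 therefore rest on RPMI-8226 being low, and without it the differences were -0.96 and -0.04. Neither GATA1 nor HBB was called. HBG1 has a near-identical neighbour, HBG2, so its level may be that of both genes.

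Genes used to classify B-cell leukaemias and lymphomas went both ways. Of 11 measured, 4 were called lower and 2 higher, against 8.47% and 8.24% of all genes tested, with a median of -0.69. LEF1, a Wnt pathway factor, was higher by 3.85 (8.66 against 5.00 and 4.63) and ZAP70, a kinase of T cells, by 2.23. Of the 7 other tested probe sets of LEF1 only 1 was called higher, and the other tested probe set of ZAP70 was not called. CD200 was lower by -5.70, CD52 by -3.73 and TNFRSF8 (CD30) by -1.49. Of 13 housekeeping genes none was called by the size rule. SDHA and YWHAZ had the largest differences among them, at 0.76 and -0.70, and GAPDH differed by -0.04.

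Some genes passed from background on one side to a high level on the other. With under 6 on every array of one side and 9 or more on every array of the other, 45 genes were on in ARP1 and 59 off. Besides the plasma cell genes, those on in ARP1 included the transcription factors RUNX2 (9.74 against 4.78 and 4.80), FOXO1 (9.62 against 4.90 and 4.98), FOXP1 (9.59 against 5.49 and 5.51) and NFIL3 (10.70 against 5.62 and 5.05). VDR, the vitamin D receptor, averaged 10.21 against 5.09 and 5.04, and KANK1, a regulator of the cytoskeleton, and LAMP5, a lysosome-associated membrane protein, differed by 6.32 and 6.08. Those off in ARP1 included the lymphocyte proteins LAPTM5 (5.10 against 11.45 and 11.52), PLEK (4.87 against 11.88 and 11.72), SLAMF1 (5.03 against 10.24 and 9.74) and CD86 (5.17 against 10.55 and 10.72), and the antioxidant enzyme GPX1 (5.23 against 11.26 and 11.72). The examples named here other than KANK1, LAMP5 and PLEK were picked from these 104 genes after their values were seen. MAF missed the rule because the JJN3 control array read 6.47.

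Among the 10 largest positive differences were also genes with no place in the lists. MYBPC2, a myosin-binding protein of fast skeletal muscle, averaged 12.15 in ARP1 and 5.75 and 5.14 in JJN3 and RPMI-8226, a difference of 6.71 (SE 0.20, adjusted p = 1.35e-09). TMT1A, a thiol methyltransferase, differed by 6.5, and KLF2, a quiescence and homing factor of lymphocytes, by 6.10. KLF2 read 10.72 and 10.82 on the ARP1 control and CPI203 arrays and 11.95 and 11.81 with LenDex and Combo, and the highest of the other arrays was 6.05. BASP1, a membrane-bound signalling protein among the 10 largest negative differences, was outside the lists as well, at 4.89 in ARP1 against 11.65 and 11.84, a difference of -6.85 (SE 0.07, adjusted p = 5.4e-12).

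A stretch of chromosome 2 held the longest run of neighbouring genes that differed in the same direction. In the gene order of the RefSeq table, 13 consecutive tested genes, which are all 13 protein-coding genes of the interval, were called higher in ARP1. From one end to the other they were ITGB1BP1, CPSF3, IAH1, ADAM17, YWHAQ, TAF1B, GRHL1, KLF11, CYS1, RRM2, HPCAL1, ODC1 and NOL10. Their differences ran from 1.1 (RRM2, a subunit of ribonucleotide reductase) to 5.55 (IAH1), with a median of 1.93, and ODC1, the first enzyme of polyamine synthesis, differed by 1.23. The 962 tested genes elsewhere on the chromosome had a median of -0.05, with 8.21% called higher. All but 1 of the 31 probe sets of the 13 genes were higher in ARP1, and 25 by 1 or more. These counts include the 13 probe sets whose calls defined the run, which had to be higher by 1 or more. The further probe sets were unequal, from 4.33 (HPCAL1) down to -0.17 (CYS1), with IAH1 at 0.23 and KLF11 at 0.04 and 0.22.

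IAH1 and the metalloprotease ADAM17 show how the stretch looked on single arrays. IAH1 read 10.50, 10.29, 10.53 and 10.44 on the ARP1 control, CPI203, LenDex and Combo arrays, between 4.69 and 4.98 in JJN3 and between 4.81 and 4.98 in RPMI-8226. ADAM17 read 10.31, 10.32, 10.29 and 10.35 on the ARP1 control, CPI203, LenDex and Combo arrays, between 8.25 and 8.77 in JJN3 and between 8.30 and 8.90 in RPMI-8226. For both genes the 4 ARP1 arrays lay above all 8 others, IAH1 as a switch from background and ADAM17 as a shift of an expressed gene. The other probe set of IAH1 gave no such switch, with a mean of 5.28 in ARP1 and 5.06 on the other 8 arrays.

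The run had different neighbours on its sides. Of the 15 tested genes before ITGB1BP1, 2 were called higher and the median was -0.25, and of the 15 after NOL10, 7 were called and the median was 0.96. Between ITGB1BP1 and TRIB2, an interval chosen after the values were seen, 19 of 22 tested genes were called higher, with SLC66A3 at 5.07, TRIB2 at 4.74, GREB1 at 3.47 and PDIA6 at 1.97. PDIA6 is thus counted both here and in the secretory list. No other run of higher genes was longer than 4 genes, with 7 of that length. The longest runs of lower genes had 5: CD53, LRIF1, DRAM2, CEPT1 and DENND2D on chromosome 1, and HLA-DRA, HLA-DRB5, HLA-DRB1, HLA-DQA1 and HLA-DQB1 on chromosome 6. DNA was not analysed here.

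**Figure D4:**
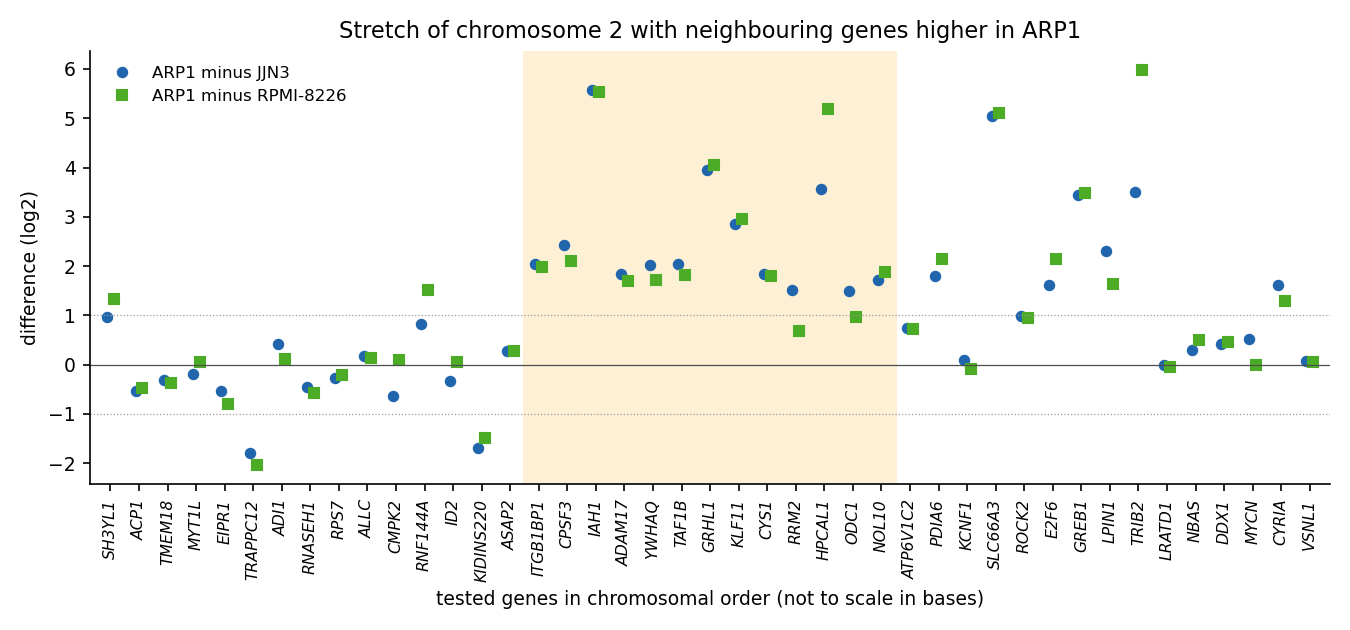
Differences on the log2 scale between ARP1 and JJN3 (circles) and between ARP1 and RPMI-8226 (squares) for 43 tested genes in their order along chromosome 2, with the 13-gene run shaded and dotted lines at a difference of 1 either way. Every shaded gene lies above 0 against both lines, from 1.1 to 5.55 against their mean, and most genes to the left of the run lie within 1 of 0.

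The count of genes whose distance between ARP1 and the other lines changed with treatment depended on the fit. A limma F test of line by treatment, with 3 residual degrees of freedom, called 82 of 15173 genes at an adjusted p under 0.05 (0.54%). It called 495 with a variance trend and robust fit, and 0 when the JJN3 control array was left out. Without that array 2041 genes had an unadjusted p under 0.05, against 2114 with it. Leaving out an array also lowers the residual degrees of freedom, and no other array was left out for this test. The fall to 0 can therefore not be assigned to the JJN3 control array. Of the 5 genes with the smallest p, 4 were higher on ARP1 arrays with LenDex or Combo and near background on all 8 arrays of the other lines. ZBTB16 (PLZF), a transcriptional repressor known to respond to glucocorticoids, read 5.21, 5.02, 8.35 and 8.37 on the ARP1 control, CPI203, LenDex and Combo arrays and 4.74 to 5.25 on the other 8 (adjusted p = 0.0196). CD160, a lymphocyte receptor, read 6.11, 5.62, 9.80 and 8.70 in ARP1 and 4.79 to 5.38 elsewhere. HOPX, a homeodomain-only protein, and the chemokine CXCL13 had their ARP1 maximum with LenDex, at 7.88 and 7.64, and stayed between 4.62 and 5.13 on all other-line arrays.

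GRB14, an adaptor that inhibits the insulin receptor, changed the sign of its difference. It read 6.54 and 6.36 on the ARP1 control and CPI203 arrays and 9.08 and 8.84 with LenDex and Combo. JJN3 read 9.16, 8.07, 8.26 and 8.25 and RPMI-8226 9.28, 8.01, 7.91 and 7.87 in the same treatment order, so ARP1 was lower by -2.67 in control and higher by 1.0 in LenDex. TSC22D3 was higher with LenDex and Combo in every line. Its ARP1 values of 7.59, 7.53, 12.14 and 12.09 compare with 9.73, 9.98, 12.71 and 13.22 in JJN3, so its ARP1 difference went from -2.06 in control to -0.50 in LenDex (adjusted p = 0.0354 for the change with treatment).

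Of the genes in which ARP1 lay between the other lines, 5 are named. These 5 genes had the largest differences between JJN3 and RPMI-8226 with ARP1 in between, and so do not describe ARP1 as such. DLK1, a Notch-ligand relative of progenitor cells, averaged 10.13 in ARP1 against 11.86 for JJN3 and 5.24 for RPMI-8226. PRAME, a cancer-testis antigen, averaged 9.02, 11.28 and 5.15, the membrane protein gene LAPTM4B 8.42, 10.33 and 4.74, and the potassium channel gene KCNH2 7.43, 9.78 and 4.90. HBG1 completed the 5. In each of them the 4 arrays of a line stayed apart from those of the next line.

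**Figure D5:**
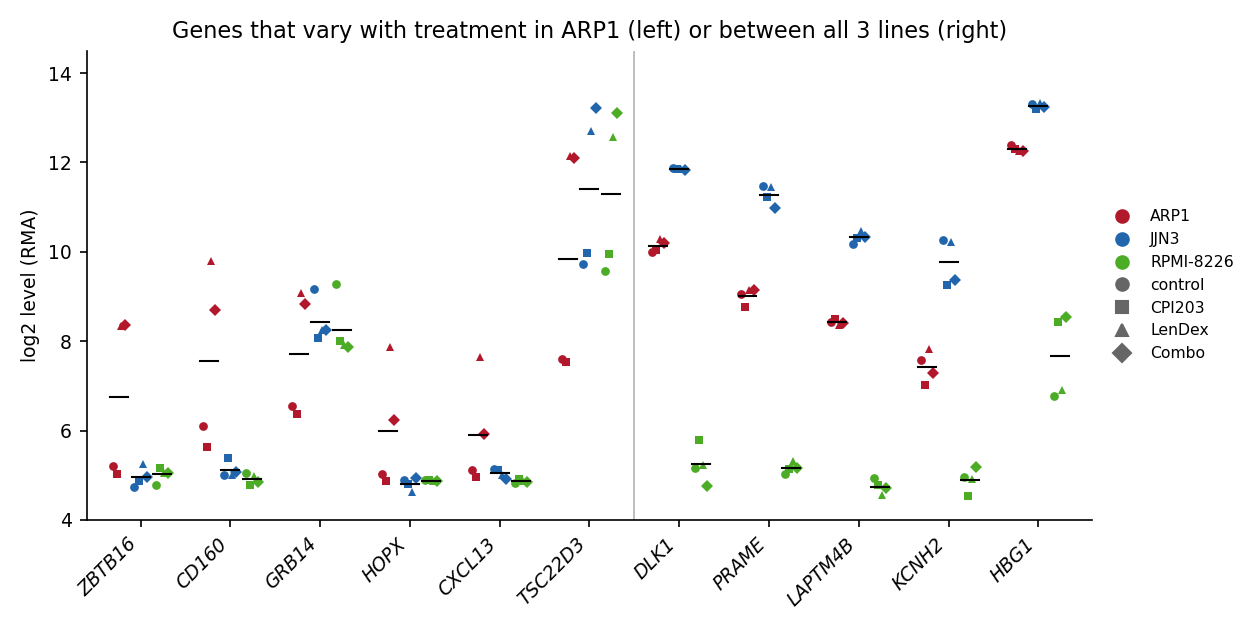
Log2 levels on the 12 arrays, coloured by line and shaped by treatment, with bars at line means; left of the vertical line are 5 genes with the smallest p for a change of the ARP1 difference with treatment and TSC22D3, and right of it 5 genes in which ARP1 lies between JJN3 and RPMI-8226. ZBTB16 and CD160 read above 8 only on the ARP1 arrays with LenDex and Combo, and DLK1 averages 10.13 in ARP1, with JJN3 above at 11.86 and RPMI-8226 below at 5.24.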

How the data were processed

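Total RNA of 12 cultures was hybridised to Affymetrix arrays, and per the submitters' processing notes the authors ran RMA with Affymetrix Expression Console 1.1. The deposited table was taken as log2 levels from its range. Whether all arrays were normalised together is not given in the sources used here. Arrays carry no read depth, and the number of arrays limits the precision. Of 49386 probe sets, 45253 had 1 gene symbol (1327 several, 2713 none, 93 controls), updated through RefSeq for 45172. Each gene took its probe set with the highest mean. limma 3.58.1 (R 4.3.3) fitted line and treatment to each gene with Benjamini-Hochberg adjustment and 6 residual degrees of freedom. ARP1 by treatment was a moderated F test with 3 residual degrees of freedom. The scripts were tested on simulated data. The members and lists were chosen with earlier results of these data known, and the lists get no test. Named were the 5 markers, the 10 largest non-overlapping differences each way, up to 4 called members per list and direction (3 by p where none), 5 genes by treatment and 5 between the lines. Other list members and genes were named after their values were seen. Alternatives covered filters, probe set choice, normalisation, variance model, single lines and single arrays.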

Additional observations from a re-analysis of the deposited data

Results flagged for a closer look

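Of 330 groups of 4 arrays examined (110 named genes in 3 lines), 14 held an array that lay far from the other 3, where chance gives about 1 in 20. The count is not above that rate, but the rate holds for 4 arrays treated alike. The 4 arrays of a group had different treatments, so an array apart may differ by treatment, and the count gives no verdict on chance. On the JJN3 control array this concerned 4 genes. There IGKC read 9.32 (others 5.11 to 5.55), IGHA1 9.84 (5.52 to 6.24), JCHAIN 9.63 (7.46 to 7.80) and GRB14 9.16 (8.07 to 8.26). GRB14 was also apart on the RPMI-8226 control array, at 9.28 against 7.87 to 8.01. In ARP1, BACH2 read 8.01 with LenDex against 6.24 to 6.46, IFI30 10.80 with LenDex against 10.89 to 10.90, and RFXANK 9.29 with Combo against 9.47 to 9.49.

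The other 6 single arrays stood apart by less than 1. IGHA1 read 6.08 and GPRC5D 5.23 on the RPMI-8226 Combo array, KANK1 5.07 on the RPMI-8226 CPI203 array and PDIA6 10.85 on the RPMI-8226 control array. PRKCB read 11.07 on the JJN3 LenDex array and ZAP70 5.17 on the JJN3 CPI203 array.

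The distance of ARP1 from the other lines differed between treatments for 82 genes by limma's F test, as given above. It did so for 0 without the JJN3 control array, a fit with fewer residual degrees of freedom.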

How the results depend on the processing

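The counts of genes called against the mean of both lines stayed between 942 and 1371 under other filters, probe set means, normalisation, variance models, single lines and no treatment term, and with single arrays left out they ran from 1226 to 1304 higher and from 1237 to 1348 lower. They moved where the unit or the size rule changed. Probe sets tested singly gave 2814 higher and 2622 lower (2815 and 2838 against JJN3, 3019 and 2656 against RPMI-8226, 424 and 213 between JJN3 and RPMI-8226). No minimum difference gave 3660 and 3851, and a minimum of 2 gave 482 and 472. The mean of a gene's probe sets gave 66 genes lower between JJN3 and RPMI-8226 in place of 117. Switch-like genes numbered 9 on and 14 off at under 5.5 and at 10 or more, and 135 and 179 at under 6.5 and at 8 or more. The F test called 495 genes with a variance trend and robust fit. It called 0 without the JJN3 control array (replicate 1), with fewer residual degrees of freedom and no other array left out for comparison.

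Signs turned for named genes that separate the other lines. Without RPMI-8226, HBZ was at -0.04, HBG1 -0.96, DLK1 -1.73, PRAME -2.26, LAPTM4B -1.90 and KCNH2 -2.35, and without JJN3, KRT18 was at 1.20 and KRT8 at 0.62. On the control arrays alone PER1 was at 0.14, and GRB14, which has no call, ran from -1.19 to 0.04 with single arrays left out. Over named genes and settings, 2421 values kept their call or, without a test, stayed within the spread over treatments, 43 lost it, 11 gained it and 10 changed sign, and 33 values on the control arrays alone, which have no test, moved by more than that spread. Of the 77 named and called genes with a further probe set, 61 had one called the same way and 0 one called the opposite way. For 16 of them no further probe set was called either way. These were IGKC, FCRL5, BACH2, CRELD2, ERO1B, ICAM3, BCL2A1, ATM, CCNE2, IKZF5, IKZF2, PER1, ZAP70, TNFRSF8, HOPX and DLK1. Array signal near background limits low levels. No paired analysis was possible because the replicate numbers stand for treatments, which the fit already holds as a term.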
